A study of Mus musculus with 2 samples.

Results

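The complementarity determining region 3 (CDR3) is the loop where the V, D and J segments of a T cell receptor (TCR) chain join. It opens with a conserved cysteine at the end of the V segment and closes with a conserved phenylalanine or similar residue of the J segment. The clonotypes described here carried a further cysteine between those ends. They were chosen by their sequence alone, as productive clonotypes (in frame, without a stop codon) of 8 to 20 residues with a cysteine after the first and before the last residue. Of 14054 productive TCRα and TCRβ clonotypes in both libraries, 205 met this rule, 34 of TCRα and 171 of TCRβ. The tables held 19558 clonotypes in all.

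iT cells are T cells made from mouse embryonic stem cells (C57BL/6 background, CD45.2) that carry a doxycycline-inducible Runx1-p2a-Hoxa9 cassette at Rosa26. The stem cells were turned into hematopoietic progenitors in culture and given to irradiated adult B-NDG recipients (CD45.1), which lack T, B and NK cells of their own. CD4 and CD8 single positive iT cells were sorted by CD45.2, 15000 cells of each type by the study's design text, without TCRγδ cells in the thymus gate and as naive CD62L+CD44- cells in the spleen gate. There was 1 library of each tissue, with 2700370 reads in 7732 clonotypes for the thymus and 4585403 reads in 11826 clonotypes for the spleen. All iT cells came from the same engineered line, no natural T cells were analysed here, and the sources used here did not give how many animals gave each library, whether the libraries shared animals, or whether CD4 and CD8 cells were pooled in each. Sequences in both libraries may thus come from the same or from different animals. With 1 library per tissue, tissue, sorting gate and library cannot be told apart, and every difference below compares those libraries, not the tissues.

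Cysteine is the amino acid whose side chains can bond to each other, and inside a folded chain it pairs with partners at set places. A free cysteine in the CDR3 loop can face the peptide and the MHC molecule. T cells with a cysteine near the middle of the CDR3 are known in mice and humans for strong self-reactivity and are lost or diverted to other fates during thymic selection. A cysteine can enter the loop from a germline V segment or from the nucleotides made at the junction.

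In these libraries the germline route accounted for nearly all TCRβ clonotypes with an internal cysteine, and for none of the TCRα ones. The mouse segment TRBV1 ends in a stretch that holds a cysteine codon. TRBV1 lies on the forward strand at chr6:40891229-40891885 of GRCm38 (GENCODE annotation), and the stretch that enters the CDR3 is the end of its last exon, chr6:40891869-40891885, with the codon at chr6:40891875-40891877. TRBV22, annotated there as a V pseudogene at chr6:41212244-41212534 of the same strand, also ends with a cysteine codon, at chr6:41212531-41212533. Both germline ends are shown because 158 of the 171 TCRβ clonotypes used TRBV1 and 3 used TRBV22. Capitals mark the internal cysteine codon in all sequences, which run 5′ to 3′.
TRBV1 germline end: tgcaccTGCagtgcaga
TRBV22 germline end: tgtgccagcagtTGTc

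The next sequences are the leading CDR3s with a TRBV1 or TRBV22 segment, and show the codon kept in place in front of different J segments.
TRBV1 with TRBJ1-6, most reads in the thymus: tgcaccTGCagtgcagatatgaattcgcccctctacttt
TRBV1 with TRBJ2-5, most reads in the spleen: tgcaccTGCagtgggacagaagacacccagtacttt
TRBV1 with TRBJ1-2, in both libraries: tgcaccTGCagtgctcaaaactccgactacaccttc
TRBV1 with TRBJ1-2 and TRBD1, in both libraries: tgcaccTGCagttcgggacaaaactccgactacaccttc
TRBV22 with TRBJ1-2, in both libraries: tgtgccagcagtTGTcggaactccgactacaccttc

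The sequences below were made at the junction or differ from the germline segment, and are among the leading ones of their kind in each library.
TRBV4 with TRBJ2-4, in both libraries: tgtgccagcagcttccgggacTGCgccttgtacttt
TRBV16 with TRBJ2-7, spleen: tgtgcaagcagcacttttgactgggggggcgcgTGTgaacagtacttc
TRAV12N-1 with TRAJ17, thymus: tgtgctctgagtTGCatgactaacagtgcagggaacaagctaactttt
TRAV10N with TRAJ13, thymus: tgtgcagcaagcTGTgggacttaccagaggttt
TRAV21/DV12 with TRAJ49, thymus: tgtatcctgTGTtaccagaacttctatttt
TRAV7D-2 with TRAJ26, in both libraries: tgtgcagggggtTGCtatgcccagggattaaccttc
TRAV8-1 with TRAJ47, spleen: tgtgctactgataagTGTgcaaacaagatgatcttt
TRAV11 with TRAJ39, spleen: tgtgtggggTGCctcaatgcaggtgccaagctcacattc
TRAV19 with TRAJ43, spleen: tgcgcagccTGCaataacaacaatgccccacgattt

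Each clonotype counted once, an internal cysteine was rare in TCRα and far more frequent in TCRβ. Shares below are followed by their Wilson 95% interval and differences by their Newcombe 95% interval; since no molecular identifiers were stated, both cover counting error only. Of 4533 productive TCRα clonotypes in the thymus, 21 held an internal cysteine, which was 0.463% (0.303 to 0.707). In the spleen 13 of 6640 did, which was 0.196% (0.114 to 0.335). For TCRβ, 58 of 1183 thymus clonotypes held it, 4.90% (3.81 to 6.29). In the spleen it was 113 of 1698, 6.65% (5.56 to 7.94). Each of the 205 clonotypes had exactly 1 internal cysteine. The TCRβ intervals lay wholly above the TCRα intervals in both libraries.

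TRBV1 made up most of that gap. It carried 55 of the 58 TCRβ members in the thymus and 103 of the 113 in the spleen, 92.4% of the TCRβ members together. Without TRBV1, 3 of 1128 thymus clonotypes held an internal cysteine, 0.266% (0.0905 to 0.779). In the spleen 10 of 1594 did, 0.627% (0.341 to 1.15). The thymus interval overlapped that of thymus TCRα, while the spleen interval lay just above that of spleen TCRα. The 10 spleen members included 2 with the germline cysteine of TRBV22. Counting only cysteine codons that do not match germline, the spleen TCRβ share was 0.471% (8 of 1698, 0.239 to 0.927). That interval overlapped the one of spleen TCRα (0.114 to 0.335).

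**Figure D1:**
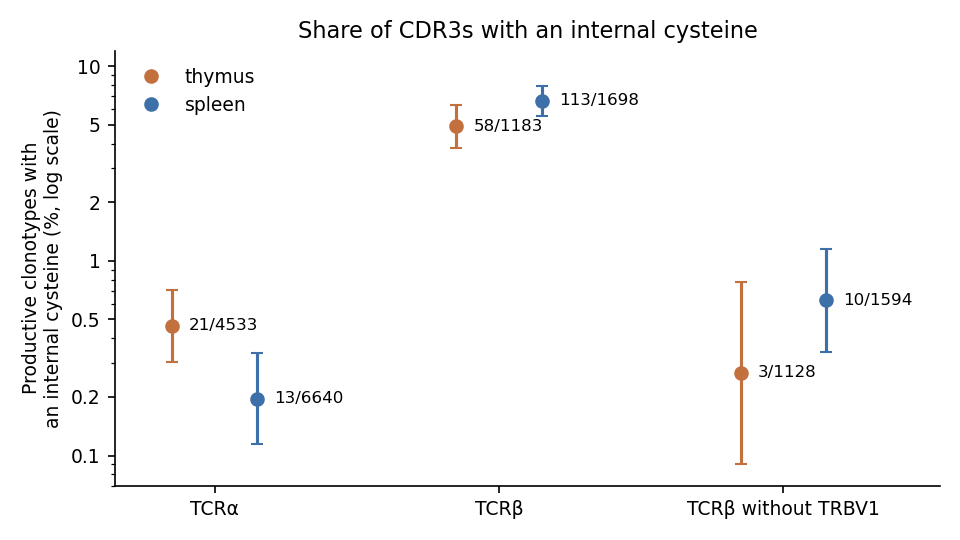
Share of productive clonotypes with an internal cysteine (percent, log scale) in TCRα, TCRβ and TCRβ without TRBV1. Points are the thymus and spleen library, bars are Wilson 95% intervals and labels give members over productive clonotypes; the TCRβ shares of 4.90% and 6.65% fell to 0.266% and 0.627% once TRBV1 was left out.

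Cysteine was the rarest residue inside the CDR3 of TCRα, counted as the share of productive clonotypes that hold a residue at least once between the ends. The next in order were histidine with 5.36% and tryptophan with 7.15% of thymus clonotypes, and in the spleen histidine with 5.98% and tryptophan with 6.28%. In TCRβ cysteine ranked 3rd from the rarest in the thymus and 4th in the spleen, with methionine rarest in both (2.20% and 1.94%). Without TRBV1 cysteine was again the rarest TCRβ residue, followed by methionine (2.22% in the thymus and 2.01% in the spleen), histidine (4.88% and 3.89%) and lysine (6.12% and 4.77%).

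The TCRα share was lower in the spleen library than in the thymus library by -0.267 percentage points (-0.525 to -0.0556). Left to clonotypes of at least 2 reads it was -0.278 points (-0.531 to -0.0758). Among clonotypes of at least 10 reads the shares were 0.160% in the spleen (10 of 6267) and 0.335% in the thymus (14 of 4178), and the interval of the difference took in 0 (-0.176 points, -0.414 to 0.0149). It also took in 0 (-0.130 points, -0.367 to 0.0675) when clonotypes 1 nucleotide away from another of the same library and chain with at least 5 times their reads were left out, with 0.197% (12 of 6087) against 0.327% (14 of 4275).

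In the thymus, 7 of the 21 TCRα members had such a larger neighbour, 33.3% (17.2 to 54.6), against 251 of 4512 cysteine-free clonotypes, 5.56% (4.93 to 6.27). These 7 had 2 to 41 reads, and their cysteine-free neighbours had 29 to 722 reads, 8.50 to 20.3 times as many. The neighbour had a serine codon in place of the cysteine codon in 4 pairs and a glycine codon in 3. The member of most reads among them joined TRAV14D-3-DV8 to TRAJ31 and had 41 reads beside a neighbour of 722 reads. In the spleen 1 of 13 TCRα members had a neighbour of at least 5 times its reads, against 552 of 6627 cysteine-free clonotypes (8.33%, 7.69 to 9.02). Under that limit, TRAV19 with TRAJ43 (176 reads) still lay beside a cysteine-free neighbour of 627 reads. TRAV6D-6 with TRAJ43 (160 reads) lay beside a cysteine-free neighbour of 301 reads. Whether these are errors of amplification or sequencing was not tested.

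For TCRβ the share was higher in the spleen library by 1.75 points, with an interval that just reached 0 (-0.00906 to 3.44). TRBV1 alone took 6.12% of productive TCRβ clonotypes in the spleen (104 of 1698) and 4.65% in the thymus (55 of 1183), a difference of 1.48 points (-0.234 to 3.11). Without TRBV1 the difference was 0.361 points (-0.226 to 0.914).

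TRBV1 members were examined first because they made up most of the set. All 55 productive TRBV1 clonotypes of the thymus and 103 of 104 in the spleen kept the cysteine at residue 3, always as TGC. The exception in the spleen had 1 read and an arginine codon at that place. The V alignment of productive TRBV1 clonotypes ran at least 11 nucleotides into the CDR3 in the thymus and at least 9 in the spleen, with a median of 16 in both, so none was trimmed past the codon. Among other TRBV segments, 18 of 1128 productive thymus clonotypes (1.60%, 1.01 to 2.51) and 33 of 1594 spleen clonotypes (2.07%, 1.48 to 2.89) kept under 9 nucleotides of V. Out-of-frame TRBV1 junctions held the same codon at that place in 16 of 16 thymus clonotypes and 18 of 19 spleen clonotypes.

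Out-of-frame junctions yield no receptor and are commonly used as a reference that selection on the protein does not reach. TRBV1 took 3.76% of out-of-frame TCRβ clonotypes of the thymus (16 of 425, 2.33 to 6.03) and 3.70% of the spleen (19 of 513, 2.38 to 5.71). The productive share was higher by 0.884 points in the thymus (-1.61 to 2.86) and by 2.42 points in the spleen (0.158 to 4.23). With out-of-frame CDR3s limited to the same length of 24 to 60 nucleotides, the spleen difference was 2.39 points (0.0530 to 4.23) and the thymus difference 0.669 points (-1.94 to 2.70). The productive share was thus the higher one in both libraries, beyond counting error in the spleen and within it in the thymus. Whether selection bears on these shares was not tested.

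By reads, TRBV1 weighed less than by clonotypes. It held 1.05% of the productive TCRβ reads of the thymus library and 0.989% of those of the spleen library. These shares depend on 1 cysteine-free clonotype in each library, with 475490 of 1630367 productive reads in the thymus and 1552980 of 2569480 in the spleen. Without that clonotype, all TCRβ members together took 1.52% and 2.68% of the reads. A typical TRBV1 clonotype was about as large as a typical clonotype without cysteine. Its median was 91 reads for the thymus (quartiles 35.5 and 175) and 158 for the spleen (78.5 and 280.8), against 112 (41 and 262) and 159 (72 and 308) for cysteine-free TCRβ clonotypes.

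TRBV1 clonotypes joined all TRBJ segments of the libraries except TRBJ1-3 in the thymus. TRBJ1-2 led in the thymus, with 12 of 55 TRBV1 clonotypes (21.8%) against 238 of 1128 of the other TRBV segments (21.1%). TRBJ2-7 led in the spleen, with 19 of 104 (18.3%) against 256 of 1594 (16.1%). Of 24 comparisons of J use, 12 in each library, 1 had an interval that left out 0. This was TRBJ1-6 in the spleen, with 7 of 104 TRBV1 clonotypes (6.73%) against 40 of 1594 (2.51%), a difference of 4.22 points (0.676 to 10.8). In the thymus TRBJ1-6 took 5.45% against 1.86%, a difference of 3.59 points (-0.118 to 13.0). The first J cluster took 43.6% of TRBV1 clonotypes in the thymus and 35.2% of the others (8.44 points, -4.14 to 21.8), and in the spleen 42.3% and 39.9% (2.41 points, -6.97 to 12.3).

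**Figure D2:**
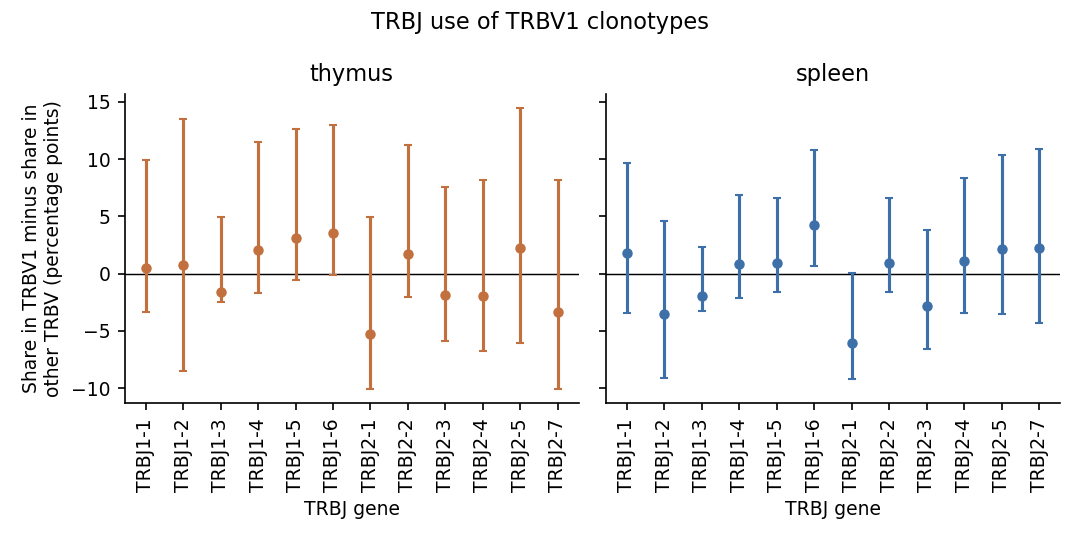
Share of each TRBJ segment among productive TRBV1 clonotypes minus its share among the other TRBV segments, in percentage points, for the thymus and spleen library with Newcombe 95% intervals. The interval of TRBJ1-6 in the spleen (4.22 points) lies above 0, and the other 23 cross it.

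CDR3 length of TRBV1 clonotypes was close to that of cysteine-free ones. The mean was 14.3 residues (SD 1.42, n = 55 clonotypes) in the thymus and 14.0 (SD 1.54, n = 104) in the spleen, against 14.0 (SD 1.84, n = 1125) and 13.8 (SD 1.62, n = 1585). The gap from the aligned V end to the aligned J start, which holds D and inserted nucleotides, averaged 8.51 nucleotides (SD 5.67) and 8.28 (SD 5.09), against 9.41 (SD 5.91) and 8.39 (SD 5.12). TRBD1 was assigned to 27.3% of TRBV1 clonotypes in the thymus and 46.2% in the spleen. These shares differed from the other TRBV segments by -1.10 points (-11.4 to 12.1) and 6.82 points (-2.76 to 16.7).

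The TRBV1 clonotypes with most reads in the thymus joined TRBJ1-6 (4260 reads), TRBJ1-2 (3824 and 1967 reads), TRBJ2-5 (754) and TRBJ2-4 (723). The first of them ranked 19th among the productive TCRβ clonotypes of the thymus. In the spleen they joined TRBJ2-5 (2885 reads, rank 18), TRBJ1-2 (1389 and 1081), TRBJ1-1 (922) and TRBJ2-7 (764). Clonotypes with an internal cysteine took 3 of the 100 largest productive TCRβ places in the thymus and 6 in the spleen, and none of the 100 largest TCRα places. Over all productive clonotypes their shares were 4.90% and 6.65% for TCRβ and 0.463% and 0.196% for TCRα. Whether the largest places differ from these shares was not tested.

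TRBV22 is a pseudogene, so an in-frame CDR3 does not show that a chain was made from it. Its 3 members carried the germline cysteine at residue 5. The CDR3 joined to TRBJ1-2 had 87 thymus reads and 215 spleen reads. The third member, with TRBJ2-5, had 9 reads in the spleen. Productive clonotypes with TRBV22 numbered 2 in each library.

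Of the other 10 TCRβ members, 6 had the codon at the junction, wholly inside neither the aligned V nor the aligned J. The other 4 had it inside an aligned segment that differed from germline there. Of the 6 junction codons, 1 in each library lay wholly between V and J. TRBV4 with TRBJ2-4 led the 10 members, with the cysteine at residue 8 of 12, and had 303 reads in the thymus (rank 256) and 789 in the spleen (rank 92). Its sequence was the same in both libraries and is the only junction-encoded TCRβ cysteine of the thymus. In the spleen TRBV16 with TRBJ2-7 had 218 reads with the cysteine at residue 12 of 16. Among the further spleen members with the codon at the junction, which are not all named here, were TRBV24 with TRBJ2-1 (54 reads) and TRBV20 with TRBJ2-1 (1 read). Of those with a mismatch, TRBV17 with TRBJ2-2 (44 reads, thymus) and TRBV14 with TRBJ2-1 (55 reads, spleen) each lay 1 nucleotide from a cysteine-free clonotype with a tyrosine codon, of 197 and 352 reads. TRBV19 with TRBJ2-1 had 4 reads beside a neighbour of 127 reads, and TRBV31 with TRBJ2-3 had 13 reads.

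By V segment with at least 20 productive clonotypes, TRBV1 stood alone among 18 TRBV segments in each library. In the thymus its share of members was 100% (55 of 55, 93.5 to 100), followed by TRBV4 with 2.56% (1 of 39, 0.454 to 13.2) and TRBV17 with 2.38% (1 of 42, 0.422 to 12.3). In the spleen it was 99.0% (103 of 104, 94.8 to 99.8), followed by TRBV14 with 3.57% (1 of 28, 0.633 to 17.7) and TRBV4 with 3.33% (1 of 30, 0.591 to 16.7). By J segment the shares were spread over all segments of that size, 11 in the thymus and 12 in the spleen. The highest were TRBJ1-6 with 12.5% in the thymus (3 of 24, 4.34 to 31.0) and 14.9% in the spleen (7 of 47, 7.41 to 27.7), TRBJ1-5 with 3 of 29 and 4 of 50, TRBJ2-2 with 8.89% in the thymus (4 of 45) and TRBJ2-4 with 8.22% in the spleen (12 of 146). Their intervals overlapped.

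TCRα members had no shared germline source. None of the 34 had a cysteine codon that matched a germline V or J segment in frame. In the thymus 11 had it at the junction and 10 inside an aligned segment that differed from germline, and in the spleen the numbers were 10 and 3. The 11 include TRAV6-3 with TRAJ17, of 1 read, which holds a stretch of the TCRα constant region transcript. The share of productive TCRα clonotypes with a junction-encoded cysteine was 0.243% for the thymus (0.136 to 0.434) and 0.151% for the spleen (0.0818 to 0.277), a difference of -0.0921 points (-0.295 to 0.0736). No V segment among the 99 with at least 20 productive TCRα clonotypes over both libraries gave a germline cysteine, while TRBV1 did so among 20 TRBV segments.

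By assigned name, the 34 TCRα members joined 27 V and 21 J segments in 34 different pairs. The pairs of TRAV7D-2 (thymus) and TRAV7-2 (spleen) with TRAJ26 were the same CDR3 sequence, found in both libraries. The V segment was tied with a near-identical copy in 8 of them, so its name is uncertain there. In the thymus TRAV10N held 1 member among 24 clonotypes (4.17%, 0.739 to 20.2), and TRAV14-3 and TRAV5-1 held 1 among 36 each (2.78%, 0.492 to 14.2). In the spleen the highest were TRAV11 (1 of 31, 3.23%, 0.572 to 16.2), TRAV8-1 (1 of 45, 2.22%) and TRAV14D-2 (1 of 65, 1.54%). Among segments of at least 20 clonotypes, the intervals of all overlapped within a library. TRAV12N-1, below that size and named after its values were seen, held 2 members among 12 thymus clonotypes (16.7%, 4.70 to 44.8), with an interval above that of TRAV6D-7 (0 to 2.79), and 0 among 15 in the spleen. The largest TRAV segments without a member were TRAV6D-7, TRAV6-6 and TRAV3D-3 in the thymus, with 134, 122 and 102 clonotypes, which allow shares of up to 2.24%, 2.46% and 2.94% (3 counts of the total). In the spleen they were TRAV16D-DV11, TRAV12-2 and TRAV12D-2, with 284, 201 and 164 clonotypes and limits of 1.06%, 1.49% and 1.83%.

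TRAJ26 and TRAJ43 each joined 4 of the 34 TCRα members, and no other J segment joined more than 2. TRAJ26 took 3 thymus members (3 of 176, 1.70%, 0.581 to 4.89) and 1 spleen member, which had the same sequence as 1 of the thymus members. TRAJ43 took 3 in the spleen (3 of 200, 0.511% to 4.32%) and 1 in the thymus. The other leading segments were TRAJ58 (1 of 43, 2.33%) and TRAJ17 (2 of 95, 2.11%) in the thymus and TRAJ24 (1 of 68, 1.47%) and TRAJ47 (1 of 87, 1.15%) in the spleen. The TRAJ segments with most clonotypes and no member were TRAJ23, TRAJ22 and TRAJ21 in the thymus (279, 235 and 158 clonotypes) and TRAJ31, TRAJ22 and TRAJ27 in the spleen (340, 277 and 276), with limits of 1.08%, 1.28% and 1.90% and of 0.882%, 1.08% and 1.09%.

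The TCRα cysteine was residue 4 or 5 in 13 of 21 thymus members and in 10 of 13 spleen members, with a median of 5 and 4. Counted as central when within 2 residues of the middle of the CDR3, 10 of 21 thymus cysteines were central (47.6%, 28.3 to 67.6) and 5 of 13 in the spleen (38.5%, 17.7 to 64.5). Of the rest, 10 and 7 lay on the V side and 1 in each library on the J side. TRBV1 put its cysteine on the V side in all 55 thymus members and in 102 of 103 spleen members, the exception being a short CDR3. Among TCRβ members without TRBV1, 2 of 3 in the thymus and 6 of 10 in the spleen (31.3% to 83.2%) were central. TGC encoded 13 of 21 thymus and 10 of 13 spleen TCRα cysteines, and TGT the others.

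**Figure D3:**
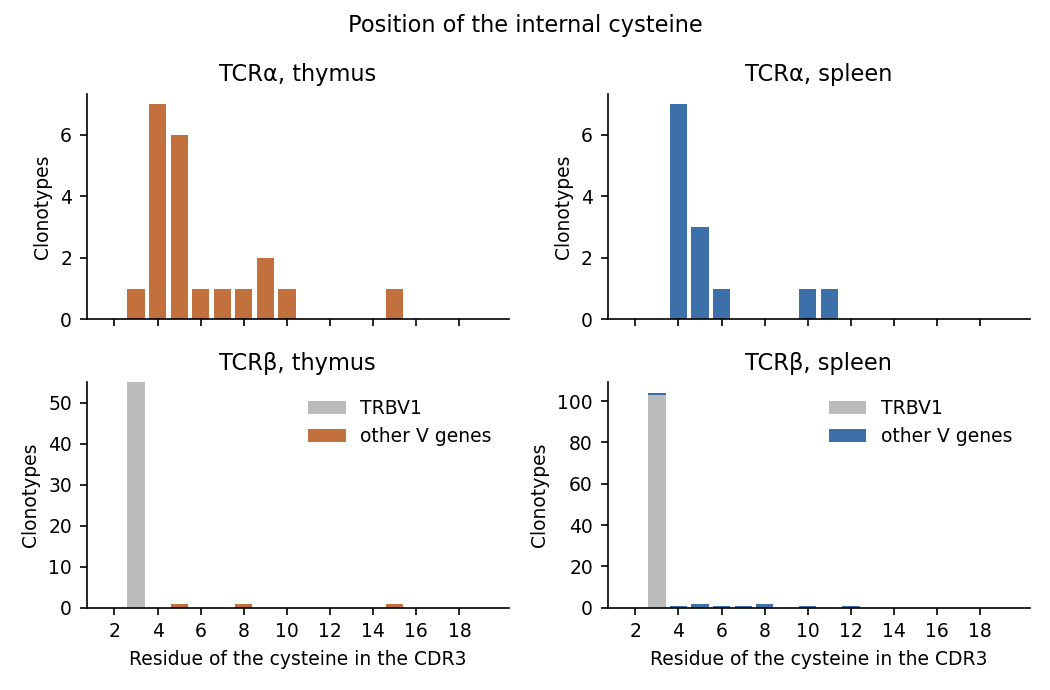
Number of clonotypes by the residue of the internal cysteine, counted from 1 at the start of the CDR3, for both chains and libraries. Gray bars are TRBV1, all at residue 3 (55 in the thymus and 103 in the spleen), and TCRα cysteines gather at residues 4 and 5 (13 of 21 and 10 of 13).

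The TCRα members of most reads in the thymus joined TRAV12N-1 to TRAJ17 (462 reads), TRAV10N to TRAJ13 (368), TRAV21/DV12 to TRAJ49 (331), TRAV7D-2 to TRAJ26 (313) and TRAV7N-6 to TRAJ16 (279). All of these except the last had the codon at the junction. In the spleen they joined TRAV8-1 to TRAJ47 (528 reads), TRAV11 to TRAJ39 (445), TRAV19 to TRAJ43 (176) and TRAV6D-6 to TRAJ43 (160), and TRAV14D-1 to TRAJ37 and TRAV6N-6 to TRAJ9 with 153 reads each. The highest rank of a TCRα member was 221 for the thymus and 491 for the spleen. At the other end, a thymus member with TRAV6-3 and TRAJ17 had 1 read, its cysteine at residue 15, and a stretch of 34 nucleotides identical to the TCRα constant region transcript. Its gap between V and J was also 34 nucleotides, and it stays among the members counted at the junction.

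Reads per clonotype overlapped widely between TCRα clonotypes with and without an internal cysteine. The median of members was 70 reads in the thymus (quartiles 6 and 123) against 98 for cysteine-free clonotypes (47 and 193), and 149 in the spleen (40 and 160) against 129 (63 and 249). In the thymus, 7 of 21 members had under 10 reads (33.3%, 17.2 to 54.6), against 7.71% of cysteine-free clonotypes (6.97 to 8.53). In the spleen it was 3 of 13 (23.1%, 8.18 to 50.3) against 5.58% (5.06 to 6.16). Members with the codon at the junction had medians of 81 and 151 reads. Members took 0.312% of productive TCRα reads (thymus) and 0.129% (spleen). For TCRβ it was 1.08% and 1.06%, or 1.52% and 2.68% without the clonotype of most reads.

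**Figure D4:**
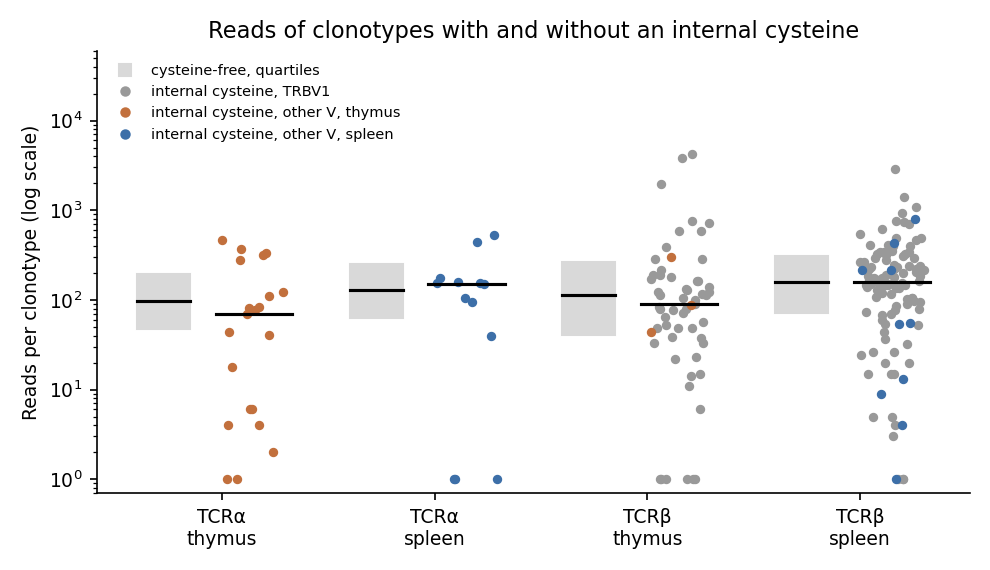
Reads per clonotype (log scale) of every clonotype with an internal cysteine, in gray for TRBV1 and in color for other V segments, beside the quartiles (box) and median (line) of cysteine-free clonotypes. Lines over the points are medians of all members of a repertoire; the 7 thymus TCRα members under 10 reads are the low group at the left, and the members of most reads are TRBV1 clonotypes of 4260 and 2885 reads.

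Lengths of TCRα members overlapped those of other clonotypes, with means of 13.5 residues (SD 2.25, n = 21) and 13.0 (SD 1.53, n = 13) against 13.5 (SD 1.38, n = 4512) and 13.5 (SD 1.39, n = 6627). In the spleen the gap between V and J was 0 or less, as when the aligned ends meet or overlap, in 2 of 13 members (15.4%, 4.33 to 42.2) and in 2720 of 6627 cysteine-free clonotypes (41.0%, 39.9 to 42.2). In the thymus it was 8 of 21 (38.1%, 20.8 to 59.1) against 31.8% (30.5 to 33.2). Whether a codon counts as junction depends on the same aligned ends, so these values describe the members and are no test.

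An identical CDR3 sequence in both libraries was found for 1 TCRα and 19 TCRβ members, 17 of the latter with TRBV1. For TCRβ this was 32.8% of thymus members (22.1 to 45.6) and 16.8% of spleen members (upper bound 24.8), against 25.8% (23.3 to 28.4) and 18.3% (16.5 to 20.3) of cysteine-free clonotypes. The TCRα sequence had 313 thymus reads and 1 spleen read, and was assigned to TRAV7D-2 and TRAV7-2, near-identical segments. The TCRβ sequences of most summed reads joined TRBV1 to TRBJ1-2 (3824 thymus and 1081 spleen reads), TRBV1 to TRBJ1-6 (4260 and 3) and TRBV1 to TRBJ1-2 with TRBD1 (1967 and 1389). Several other shared TCRβ sequences had a single read in one of the libraries. Among them TRBV1 with TRBJ1-1 had 1 thymus and 922 spleen reads, and TRBV1 with TRBJ2-7 had 1 and 748. Another sequence of TRBV1 with TRBJ1-2 had 393 and 1. Whether such single reads passed between the libraries was not tested. Of TRBV1 clonotypes, 30.9% in the thymus (17 of 55) and 16.3% in the spleen (17 of 104) were in both, against 25.9% (292 of 1128) and 18.3% (292 of 1594) of the other TRBV segments. These differences were 5.02 points (-5.93 to 18.4) and -1.97 points (-8.18 to 6.51). Of cysteine-free TCRα clonotypes, 610 were in both, 13.5% in the thymus and 9.20% in the spleen, against 4.76% (0.846 to 22.7) and 7.69% (1.37 to 33.3) of members.

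The same reference was used for cysteine codons. Junction codons were those wholly inside neither the aligned V nor the aligned J segment, also where V and J met within the codon. They were counted in both kinds of clonotype, read in the frame of the V segment and without stop codons. In productive TCRα clonotypes 14 of 5669 such codons encoded cysteine in the thymus (0.247%) and 11 of 7400 in the spleen (0.149%). The first and last codons of the CDR3 were not left out of this count. It therefore exceeds the 11 thymus and 10 spleen TCRα members with an internal cysteine at the junction. For TCRβ it was 1 of 4527 (0.0221%) and 5 of 5911 (0.0846%). In out-of-frame clonotypes of any length the shares were 0.481% (11 of 2288) and 0.833% (30 of 3600) for TCRα and 1.25% (30 of 2396) and 1.31% (39 of 2983) for TCRβ. The differences were -0.234 points for thymus TCRα (-0.625 to 0.0362), -0.685 for spleen TCRα (-1.04 to -0.409), -1.23 for thymus TCRβ (-1.76 to -0.842) and -1.22 for spleen TCRβ (-1.70 to -0.855).

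In 3 of the 4 repertoires most out-of-frame cysteine codons lay in CDR3s outside the length that the rule allows for productive ones. For TCRα, 14 of 1521 thymus and 34 of 2899 spleen out-of-frame clonotypes lay outside 24 to 60 nucleotides, and they held 4 of 11 and 23 of 30 cysteine codons. For TCRβ it was 23 of 425 and 31 of 513 clonotypes, with 25 of 30 and 37 of 39 codons. Their median was 1 read except in thymus TCRα (28). Within 24 to 60 nucleotides, the out-of-frame shares were 0.359% (7 of 1949) and 0.244% (7 of 2866) for TCRα and 0.297% (5 of 1686) and 0.103% (2 of 1948) for TCRβ. The differences were then -0.112 points (-0.505 to 0.137) and -0.0956 (-0.363 to 0.0765) for TCRα and -0.0181 (-0.293 to 0.118) for spleen TCRβ. Only thymus TCRβ kept an interval below 0, with -0.274 points (-0.671 to -0.0759), and it rested on 1 and 5 codons.

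**Figure D5:**
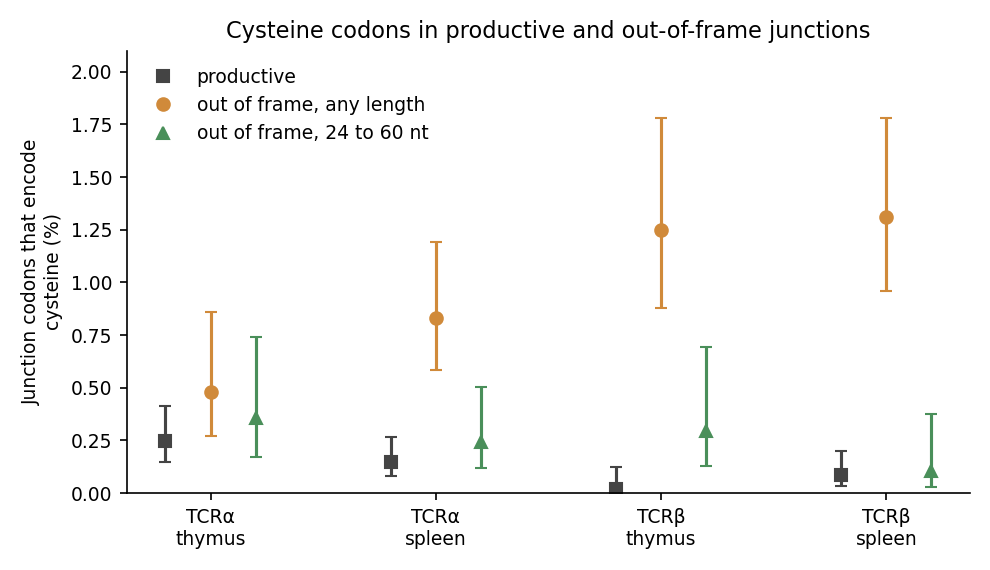
Junction codons that encode cysteine, in percent, in productive clonotypes, in all out-of-frame clonotypes and in out-of-frame clonotypes of 24 to 60 nucleotides, with Wilson 95% intervals. The out-of-frame share of spleen TCRβ is 1.31% over all lengths and 0.103% at matched length, near the productive share of 0.0846%.

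At matched length cysteine was the rarest of the 20 amino acids among junction codons of both kinds in all 4 repertoires, shared with methionine in out-of-frame thymus TCRα (7 codons each). The next residue among productive junction codons was methionine throughout, with 0.635% and 0.730% in TCRα and 0.530% and 0.474% in TCRβ of thymus and spleen. Asparagine followed in the thymus (1.08% in TCRα and 0.839% in TCRβ), and in the spleen tryptophan in TCRα (1.19%) and phenylalanine in TCRβ (0.812%).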

How the data were processed

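TCR transcripts were amplified with the SMARTer Mouse TCR a/b Profiling Kit and sequenced on a MiSeq. The authors made reads with bcl2fastq (named in the submitters' processing notes) and assembled clonotypes with MiXCR against its own gene library. They deposited, per clonotype, a raw read count, that count as a fraction of the library, and a score for the lowest base quality of the CDR3. Read filters and molecular identifiers were not given in the sources used here.

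Chain was taken from the first J hit and the count of reads was used without normalization. Productive CDR3s had no frameshift or stop mark and 8 to 20 residues; 9 and 14 TCRα and 5 and 7 TCRβ clonotypes of thymus and spleen did not begin with cysteine and were kept. A codon counted to V or J only with all 3 bases aligned. TRBV coordinates and germline ends came from the GENCODE annotation of GRCm38. With 1 library per tissue no p-value was computed. Wilson and Newcombe 95% intervals (Python 3.11.15, scipy 1.17.1, pandas 2.3.3) treat clonotypes as independent. Members and lists were chosen with earlier results of these data known. Named were the 3 V and J segments of highest share among those with 20 clonotypes, the largest TCRα segments without a member, TRBV1, the 5 members of most reads per repertoire and shared members of most reads; other members were named after their values were seen. A member is not reported here by name. The counting was tested on cysteine-free CDR3s of these libraries with cysteine codons placed in them. The match to germline and the search for neighbours were not part of that test. The other experiments of the study were not analysed here.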

Additional observations from a re-analysis of the deposited data

How the results depend on the processing

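No paired analysis was possible because each tissue has 1 library. Of 146 values under an alternative, 120 stayed within the interval of the reported value. Weighted by reads, the TCRβ share of members became 1.08% in the thymus and 1.06% in the spleen (1.52% and 2.68% without the clonotype of most reads), their difference -0.0214 points, and the junction-encoded share of spleen TCRβ 0.0579%. Without TRBV1 the TCRβ shares were 0.266% and 0.627%. CDR3s of any length raised the junction-encoded share of thymus TCRβ to 0.503%, and counting every codon that does not match germline raised that of thymus TCRα to 0.463%. With central taken as within 1 residue, the central share was 15.4% for spleen TCRα and 0% and 1.77% for thymus and spleen TCRβ.

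The productive minus out-of-frame difference in cysteine codons moved most. With at least 10 reads it was -0.149 points (spleen TCRα), -0.381 (thymus TCRβ) and -0.419 (spleen TCRβ). With out-of-frame CDR3s of 24 to 60 nucleotides it was -0.0956, -0.274 and -0.0181, with both limits -0.0602, -0.257 and 0.0740, a reversed sign for spleen TCRβ with 0 of 1290 out-of-frame codons, and with that length and larger neighbours left out -0.0565, -0.224 and -0.0208. With codons wholly between V and J it was -1.40 for spleen TCRα. The length limit, the limit on larger neighbours, the weight without the leading clonotype, leaving out TRBV1 and counting every codon that does not match germline were added after seeing the data.

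The TCRα difference between libraries was below 0 under all alternatives, from -0.311 to -0.130 points where an interval was computed, and 6 of 8 intervals left out 0; the exceptions were at least 10 reads and larger neighbours left out. For TCRβ, 2 of 9 intervals left out 0 (at least 2 reads, and clonotypes of both libraries left out, up to 2.31 points). Leaving out a replicate was not possible. The number of members, not read depth, set the width of the intervals: 3 reads were at most 0.000327% of a chain.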

Other observations

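CDR3s longer than 20 residues, which the length rule left out, often held an internal cysteine. Of 31 such in-frame TCRα and TCRβ clonotypes without a stop codon, 19 did (61.3%, Wilson 95% interval 43.8 to 76.3). The shortest of these had 25 residues, while the longest clonotype inside the rule had 18. They had at most 58 reads in TCRα and at most 2 in TCRβ. No CDR3 under 8 residues held an internal cysteine, of 10 in both chains and libraries. With a TRDJ segment, 1 of 4 productive clonotypes held internal cysteine, with 1 read.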
